A study of Mus musculus with 37 samples.

Results

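The 7 genes described here make haemoglobin or mark red blood cells: the α-globin genes Hba-a1 and Hba-a2, the β-globin genes Hbb-bs and Hbb-bt, Alas2, Slc4a1 and Bpgm. They were taken by symbol from the 56748 genes of a table of FPKM, fragments per kilobase of gene length scaled between libraries, and each symbol matched 1 row. The table covers 37 libraries of left ventricle tissue from C57BL/6J mice of both sexes, 8 to 10 weeks old, from hearts flushed with cold saline and with the apex removed. Naïve mice (n = 5) had isoflurane anaesthesia only, without injection or intubation, and their tissue was taken after imaging, without the recovery of the other groups. Adr mice (4 libraries each for 0.5, 1, 3 and 7 days), which the labels call sham, received saline into the left ventricle and, 8 min later, 500 µL of adrenaline at 15 µg/mL. Arrest mice (4 at each of the same times) received potassium chloride into the left ventricle, 8 min of asystole, and then adrenaline with chest compressions. Adr and Arrest mice were also intubated and mechanically ventilated. Isoflurane was shared by all 9 groups. Ventilation, injection into the ventricle, adrenaline and recovery were shared by the 8 treated groups and cannot be told apart against Naïve. Asystole, potassium chloride and chest compressions cannot be told apart in Arrest against Adr. All 8 comparisons with Naïve use the same 5 Naïve libraries.

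Each adult haemoglobin molecule joins α and β chains, each chain holding 1 haem group that binds oxygen. Alas2 is the red cell form of the first enzyme of haem synthesis, and it is distinct from Alas1, the form used in other tissues. Slc4a1 (band 3) exchanges chloride and bicarbonate across the red cell membrane, and Bpgm makes 2,3-bisphosphoglycerate, which lowers the oxygen affinity of haemoglobin. Mature red cells have no nucleus, and the youngest ones in the circulation still carry globin mRNA. In tissue RNA of this kind, fewer cells of a type and less RNA per cell cannot be told apart.

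The members share sequence to an extent that limits how they can be separated. The 2 α-globin coding sequences, each of 429 bases in the GENCODE M21 transcripts, differed at 1 position, C381T, and the 2 β-globin coding sequences, each of 444 bases, also differed at 1 position, C417T. Positions count from 1 at the first base of the start codon, and the first base is that of Hba-a1 or Hbb-bs. The 41 bases around each difference are shown because they are all that tells the coding sequences apart, with the differing base in capitals.
Hba-a1: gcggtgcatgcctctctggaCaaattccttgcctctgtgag
Hba-a2: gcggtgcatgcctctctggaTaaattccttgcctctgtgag
Hbb-bs: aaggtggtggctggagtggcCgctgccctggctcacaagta
Hbb-bt: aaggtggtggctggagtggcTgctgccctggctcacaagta
Of the 150-base windows of the Hba-a2 transcript, 65.7% also occurred in Hba-a1, and of those of Hbb-bt 50.7% also occurred in Hbb-bs. How fragments that match both copies were assigned is not given in the sources used here, so a split between copies is less certain than the sum of a pair.

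As a description, the 250 bases before the start sites of these genes are also shown. RefSeq promoter entries (GRCm38.p6) matched 6 of the 7 genes, and Slc4a1 had no entry. Capitals mark 4 motifs searched on both strands: the GATA site is GATAAG, the CACCC box is CACCC, the CCAAT box is CCAAT and the TATA-like box is ATATAA, each also in its reverse complement. A CCAAT box on each strand adjoins in Hbb-bt. The windows are Hba-a1 at chr11:32283422-32283671 on the plus strand, Hbb-bs at chr7:103827929-103828178 and Hbb-bt at chr7:103813924-103814173 on the minus strand, and Alas2 at chrX:150547167-150547416 on the plus strand.
Hba-a1: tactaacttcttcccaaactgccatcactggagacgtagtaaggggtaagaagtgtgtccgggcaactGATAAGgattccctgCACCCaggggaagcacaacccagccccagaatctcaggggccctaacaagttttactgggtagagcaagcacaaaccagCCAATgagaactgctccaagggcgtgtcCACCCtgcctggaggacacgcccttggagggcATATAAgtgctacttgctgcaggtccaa
Hbb-bs: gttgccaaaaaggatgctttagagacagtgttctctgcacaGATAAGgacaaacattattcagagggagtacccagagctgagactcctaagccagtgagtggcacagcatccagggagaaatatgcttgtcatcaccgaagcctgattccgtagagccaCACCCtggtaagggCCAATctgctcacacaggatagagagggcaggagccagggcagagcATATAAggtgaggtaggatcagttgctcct
Hbb-bt: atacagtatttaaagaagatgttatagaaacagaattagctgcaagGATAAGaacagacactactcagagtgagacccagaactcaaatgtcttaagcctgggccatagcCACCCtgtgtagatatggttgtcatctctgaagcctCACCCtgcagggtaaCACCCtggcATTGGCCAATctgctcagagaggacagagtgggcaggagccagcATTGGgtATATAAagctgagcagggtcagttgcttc
Alas2: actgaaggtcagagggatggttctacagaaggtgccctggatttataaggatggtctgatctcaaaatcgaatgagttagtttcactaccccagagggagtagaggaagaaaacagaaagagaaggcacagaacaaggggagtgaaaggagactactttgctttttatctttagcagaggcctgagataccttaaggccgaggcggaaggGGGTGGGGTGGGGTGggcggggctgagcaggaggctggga
All 4 motifs stood in each of the 4 globin windows, and 46 of 32851 promoter windows of this length (0.14%) held all 4. Singly, the GATA site stood in 6.55% of all windows, the CACCC box in 52.0%, the CCAAT box in 33.9% and the TATA-like box in 9.10%. The window of Hba-a2 matched that of Hba-a1 without a substitution, shifted by 3 bases. Of these exact strings, Alas2 held the CACCC box alone, 3 times on the reverse strand, and Bpgm the CCAAT box alone. Other forms of the sites were not searched, so a window without capitals for a site can still hold another form of it. All of these are matches of letters, not measured binding, and whether they bear on the levels was not tested.

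The libraries held 13.2 to 30.2 M counted fragments. Each showed heart tissue: Myh6, the main myosin heavy chain of mouse heart muscle, lay between 379 and 1885 FPKM. Replicate 3 of Adr 3 d stood apart, with 9.36% of its fragments on mitochondrial genes against 20.8 to 30.9% in the other 36 libraries. Its summed FPKM of 7 cardiomyocyte genes was 3647 against 8063 to 17991 elsewhere, and its summed FPKM of 12 platelet genes was 294 against 35.1 to 119.6. It also had the lowest summed haemoglobin FPKM, but not the lowest globin share of counted fragments (0.0873% against 0.0627 to 0.395% elsewhere). Differences of the members that involve Adr 3 d and the test across all groups are given with and without it. So are the correlations with platelet, neutrophil and B cell genes. Group means, their order and the medians of gene lists include it. No label marks this library.

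The 4 globin genes were abundant and uneven. Over the 37 libraries, Hbb-bs averaged 1298 FPKM, Hba-a1 736 FPKM, Hba-a2 107.8 FPKM and Hbb-bt 107.8 FPKM. The haem enzyme Alas2 averaged 12.4 FPKM, Bpgm 7.53 FPKM and Slc4a1 0.146 FPKM. FPKM is per length, so levels of different genes can be set against each other. Within a pair of copies, the levels also depend on how fragments matching both were assigned. Greater and lesser copy below refer to these listed values only. Together the 4 globins took between 0.0627% and 0.395% of all counted fragments in a library. Their counts ran from 426 fragments for Hba-a2 at the lowest to 46945 for Hbb-bs at the highest, so counting error at the lowest count was 4.85%. Over all 37 libraries the globins ranged 5.82-fold (Hbb-bs) to 8.09-fold (Hba-a2), far wider than that. Inside some groups the spread was near or under it. The coefficient of variation was 6.71% for Hba-a2 in Arrest 3 d and 1.05% for Hbb-bs in Arrest 1 d. Slc4a1 is different: its fragments numbered 0 to 60 a library with a median of 8.

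**Figure D1:**
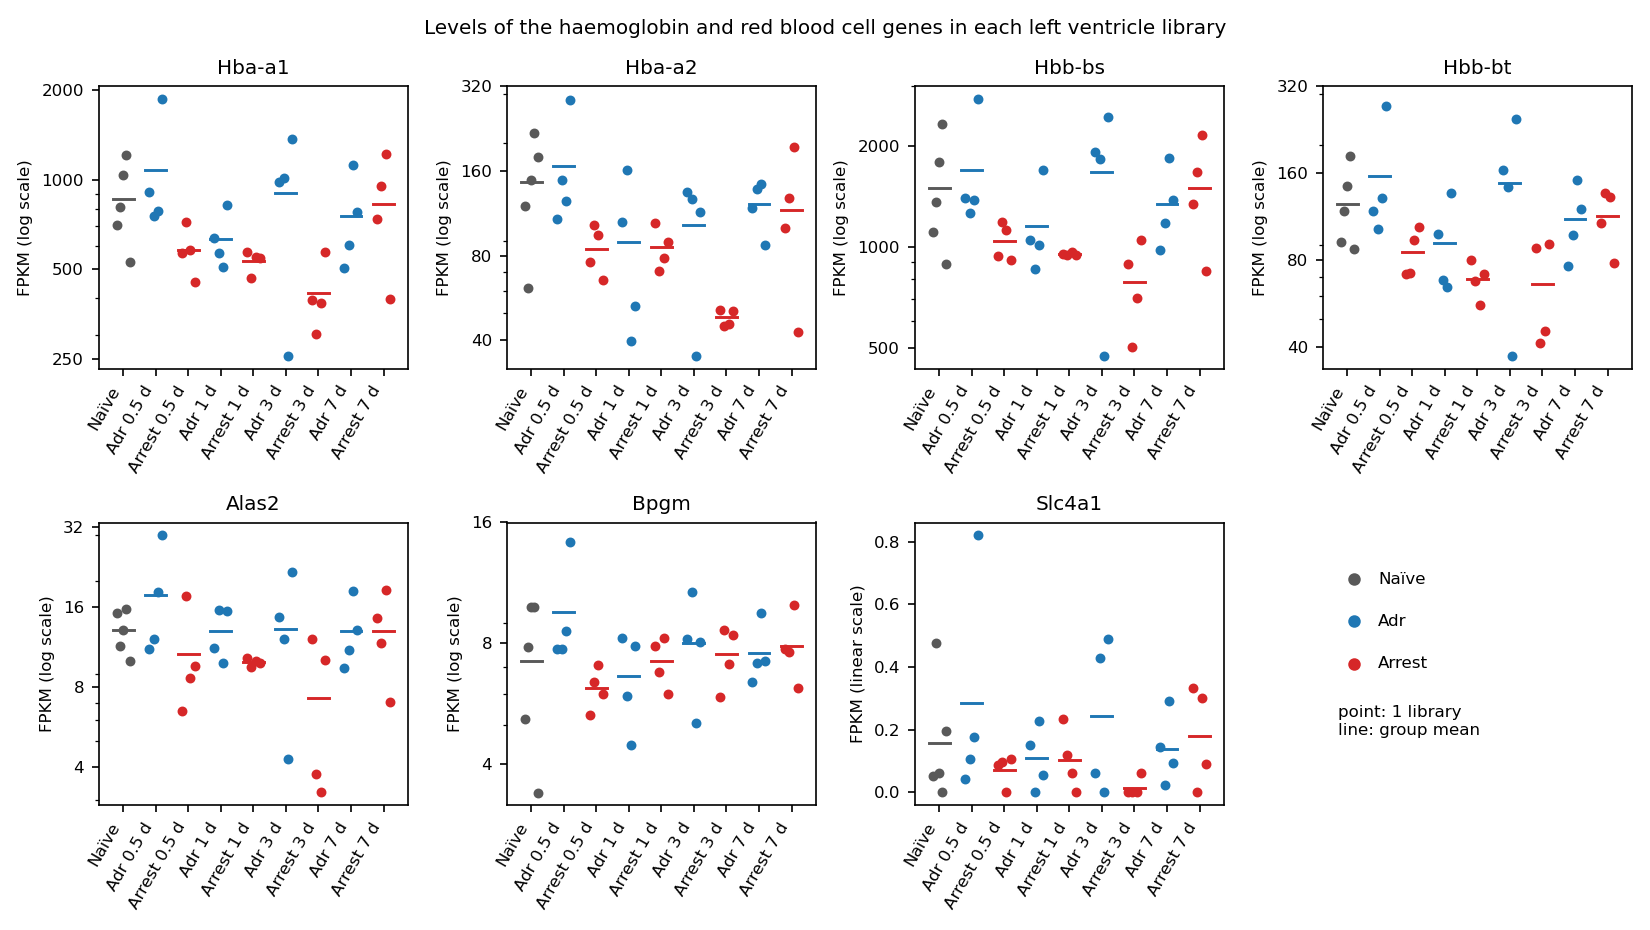
FPKM of each of the 7 genes in every library, by group (log scale, except Slc4a1 on a linear scale); points are libraries and lines are group means. For Hba-a2 the 4 Arrest 3 d libraries lie between 45.1 and 51.1, under all 5 Naïve libraries (61.5 to 218), while in most other panels the groups overlap.

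Summed haemoglobin, the FPKM of the 4 globins together, is given as a description. It was 2624.5 ± 904 (SD, n = 5) in Naïve hearts. The Adr groups had 3102 ± 1392, 1969 ± 504, 2821 ± 1428 and 2332 ± 680 FPKM on days 0.5, 1, 3 and 7 (SD, n = 4 each). The Arrest groups had 1790 ± 244, 1642 ± 64.3, 1316 ± 369 and 2558 ± 983 FPKM at the same times (SD, n = 4 each). As a share of the Naïve mean, Arrest stood at 68.2%, 62.6%, 50.1% and 97.5%, and Adr at 118%, 75.0%, 107% and 88.8%. From high to low the order of the group means was Adr 0.5 d, Adr 3 d, Naïve, Arrest 7 d, Adr 7 d, Adr 1 d, Arrest 0.5 d, Arrest 1 d and Arrest 3 d. No neighbours in that order differ by more than the larger of their SDs. Single libraries ran from 802 in Adr 3 d replicate 3, which the Adr 3 d mean and this order include, to 5185 in Adr 0.5 d replicate 4. The median of Adr 3 d was 3159 FPKM, against 2477 in Adr 0.5 d and 2355 in Naïve.

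Hba-a1, the greater α-globin copy, measured 705, 814, 1042, 1209 and 532 FPKM in the 5 Naïve libraries. In Arrest 3 d it measured 396, 304, 387 and 574 FPKM. In Adr 3 d it measured 987, 1013, 256 and 1367 FPKM. Arrest 3 d thus lay mostly under Naïve, with 1 library above the lowest Naïve one, and 3 of the 4 Adr 3 d libraries lay above all of Arrest 3 d. In Adr 0.5 d the values were 909, 757, 788 and 1872 FPKM, and in Arrest 0.5 d 567, 722, 583 and 454 FPKM, with no overlap.

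Hba-a2, the lesser α-globin copy, measured 120.1, 61.5, 149, 218 and 179 FPKM in Naïve. In Arrest 3 d it measured 51.1, 45.1, 45.7 and 50.9 FPKM, and the highest of these was under the lowest Naïve library. In Adr 3 d it measured 135, 127, 35.2 and 114 FPKM. In Adr 0.5 d it measured 107.6, 148, 125 and 284 FPKM, all above the 75.7, 103, 94.9 and 65.2 FPKM of Arrest 0.5 d.

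Hbb-bs, the greater β-globin copy, measured 1111, 1361, 1782, 2325 and 889 FPKM in Naïve. Arrest 3 d had 888, 504, 704 and 1050 FPKM, and in Adr 3 d 1921, 1827, 474 and 2437 FPKM. At 1 day the 4 Arrest libraries were almost equal, at 951, 948, 968 and 945 FPKM, a coefficient of variation of 1.05% against 38.2% in Naïve. Hbb-bt, the lesser β-globin copy, measured 92.2, 118, 145, 183 and 87.4 FPKM in Naïve. At 1 day of Arrest it measured 79.8, 67.4, 55.7 and 71.2 FPKM, all under Naïve. Arrest 3 d had 87.6, 41.3, 45.4 and 90.4 FPKM, so 2 libraries reached the lowest Naïve value.

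Alas2 measured 15.2, 11.4, 13.1, 15.7 and 10.1 FPKM in Naïve. In Arrest 3 d it split into 12.2 and 10.1 FPKM in replicates 1 and 4 and 3.77 and 3.21 FPKM in replicates 2 and 3. In Adr 3 d it measured 14.6, 12.1, 4.28 and 21.8 FPKM. The 4 libraries of Arrest 1 d lay between 9.55 and 10.3 FPKM. Bpgm varied less between groups, with means from 6.19 ± 0.744 FPKM in Arrest 0.5 d to 9.60 ± 3.17 in Adr 0.5 d (SD, n = 4 each) and 7.23 ± 2.87 in Naïve (SD, n = 5). Slc4a1 was listed at 0 in 9 of 37 libraries, where a count of 0 allows up to 0.0254 to 0.0451 FPKM (3 fragments; counting error only). Of the 4 Arrest 3 d libraries 3 were among them, and the remaining one held 10 fragments. Naïve libraries held 4, 37, 4, 0 and 13 fragments of Slc4a1, so the groups overlap and the gene was too low to enter the test, with 0.5 FPKM or more in 1 library where 4 were required.

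The first question is whether these genes differed from the level of anaesthetised controls after the Adr or the Arrest procedure, each taken as a whole. Fold changes are of FPKM + 1 on the log2 scale, from limma fitted to 16530 genes in all 9 groups, with Benjamini-Hochberg adjustment over all of them and a threshold of 0.05. The other 6 genes entered the test. None of the 6 was called in any of the 8 comparisons. The share of all genes called was 0.188%, 0.69%, 0% and 0% for Adr on days 0.5, 1, 3 and 7, and 3.21%, 7.11%, 0.139% and 0% for Arrest. Without adjustment, limma p was at most 0.05 for none of the 6 in Adr on days 0.5, 1, 3 and 7. The shares of all genes there were 14%, 14.7%, 13.9% and 6.15%. In Arrest the count was 0 of 6 at 0.5 days (18.2% of all genes) and 1 of 6 at 1 day (21.7% of all genes). It was 5 of 6 at 3 days (13.7% of all genes) and 0 of 6 at 7 days (5.15% of all genes). The median log2 fold change of the 6 in Arrest 3 d was -0.93, against 0.01 over all genes tested.

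**Figure D2:**
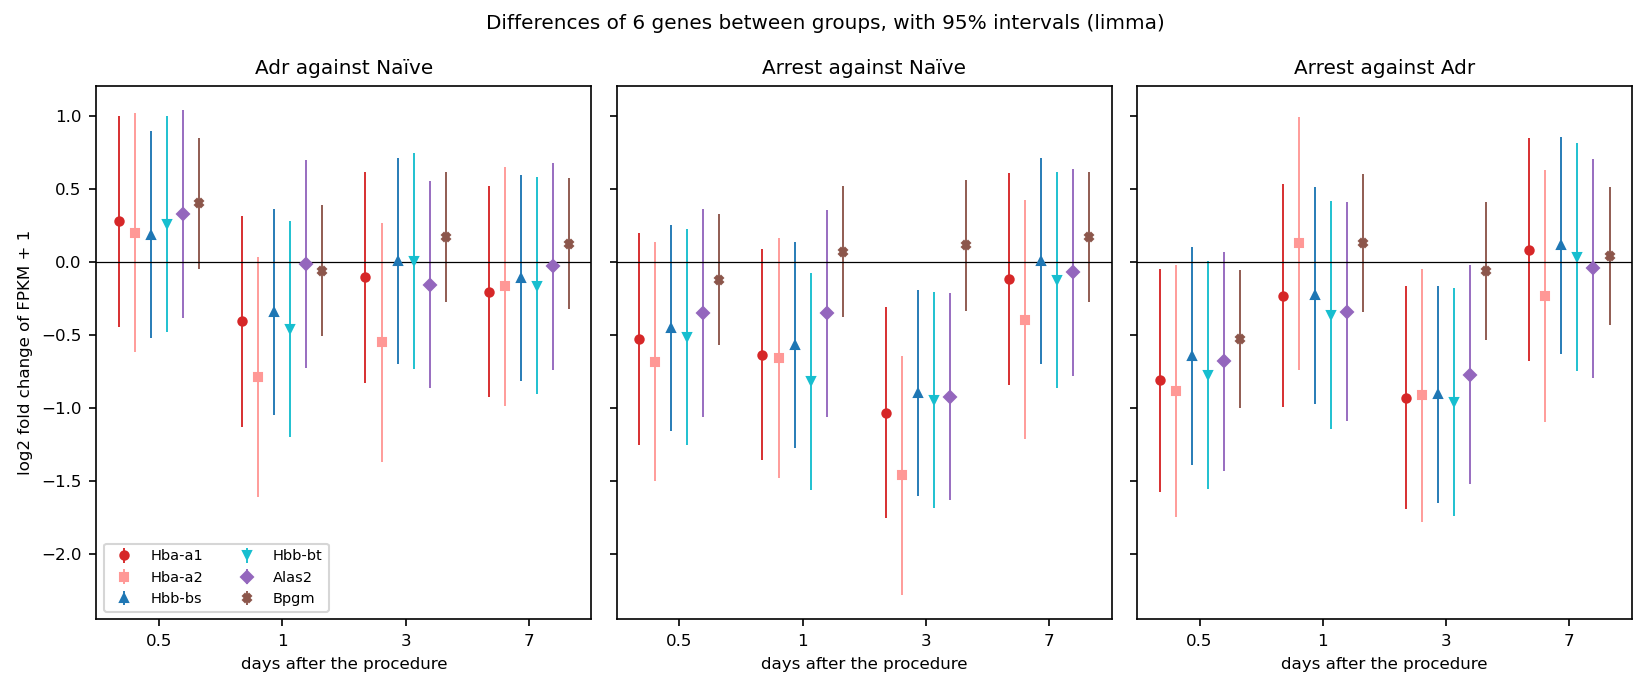
Log2 fold change of FPKM + 1 with its 95% interval (limma) for 6 genes on days 0.5, 1, 3 and 7, for Adr against Naïve, Arrest against Naïve and Arrest against Adr. The largest difference is that of Hba-a2 in Arrest 3 d against Naïve, at -1.46. In Arrest 3 d the globins and Alas2 stand from -0.89 to -1.46 against Naïve and from -0.77 to -0.95 against Adr. Bpgm stays at 0.12 and -0.06.

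For Arrest 3 d against Naïve, Hba-a2 was at -1.46 on the log2 scale (SE 0.40, limma adjusted p = 0.103). Hba-a1 had -1.03 (SE 0.36, limma adjusted p = 0.182), Hbb-bt -0.94 (adjusted p = 0.230), Alas2 -0.92 (adjusted p = 0.223) and Hbb-bs -0.89 (adjusted p = 0.232). Bpgm had 0.12, with a 95% interval from -0.33 to 0.57. Every library of Arrest 3 d was lower than every Naïve library for Hba-a2 alone (exact two-sided permutation test p = 0.0159, where the smallest possible is 0.00794), a pattern that 1.78% of all genes showed. With Adr 3 d replicate 3 left out of the model, the fold change of Hba-a2 was the same and its limma adjusted p was 0.0387, with 1.13% of all genes called. In that fit Hba-a1 had an adjusted p of 0.0591. That library is in neither group of the comparison, and it enters only through the pooled spread.

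In Arrest 1 d against Naïve, Hbb-bt had -0.82 (SE 0.36, limma adjusted p = 0.177), and every Arrest 1 d library was lower than every Naïve one (exact two-sided permutation p = 0.0238), as for 4.8% of all genes. The other globins had -0.56 to -0.65, Alas2 -0.35 and Bpgm 0.07. In Arrest 0.5 d the values of the 4 globins were -0.45 to -0.68, with Alas2 at -0.35 and Bpgm at -0.12. At 7 days the 6 genes stood between -0.39 and 0.17 in Arrest, and the 95% intervals of the globins reached from -1.21 to 0.72. With all libraries, the lowest value in Adr was -0.78 for Hba-a2 at 1 day (95% interval -1.60 to 0.04). The highest was 0.40 for Bpgm at 0.5 days (-0.04 to 0.85). In Adr 3 d the values ran from -0.55 (Hba-a2) to 0.17 (Bpgm). Without Adr 3 d replicate 3 they were 0.43 for Hba-a1, -0.10 for Hba-a2, 0.54 for Hbb-bs and 0.57 for Hbb-bt. Alas2 was then at 0.26 and Bpgm at 0.35, with limma adjusted p from 0.729 to 0.988 over the 6 genes.

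By the exact two-sided permutation test without adjustment, p was at most 0.05 for 2 of the 6 genes in Arrest 1 d against Naïve (19.2% of all genes), 5 in Arrest 3 d against Naïve (8.94% of all genes) and 4 in Arrest 0.5 d against Adr 0.5 d (3.62% of all genes).

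The second question is whether Arrest mice differed from Adr mice of the same time. Only Arrest mice had asystole, potassium chloride and chest compressions, so this comparison cannot tell these apart. None of the 6 genes was called in Arrest against Adr at 0.5, 1, 3 or 7 days, where limma called 0%, 0%, 0% and 0.00605% of all genes. Without adjustment, p was at most 0.05 for 3 of 6 genes at 0.5 days (3.86% of all genes) and for 5 of 6 at 3 days (5.37% of all genes). It was so for none at 1 and 7 days (6.59% and 2.52% of all genes). At 0.5 days the log2 differences were -0.81 for Hba-a1, -0.88 for Hba-a2, -0.64 for Hbb-bs, -0.77 for Hbb-bt, -0.68 for Alas2 and -0.52 for Bpgm, each with a limma adjusted p of 1. Every Arrest library was lower than every Adr library for 4 of them, Hba-a1, Hba-a2, Hbb-bs and Bpgm (exact two-sided permutation p = 0.0286, the smallest that 4 against 4 allows), a pattern that 1.91% of all genes showed. Without Adr 0.5 d replicate 4, the library highest in globins, the differences of the globins were -0.38 to -0.59, that of Alas2 was -0.41 and that of Bpgm -0.33.

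At 1 day, Arrest against Adr gave log2 differences of -0.36 (Hbb-bt) to 0.13 (Hba-a2 and Bpgm), and at 7 days of -0.23 (Hba-a2) to 0.12 (Hbb-bs). The 95% intervals at 7 days reached from -1.09 to 0.86 over the 6 genes.

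At 3 days, Arrest against Adr gave -0.93 for Hba-a1, -0.91 for Hba-a2, -0.90 for Hbb-bs, -0.95 for Hbb-bt, -0.77 for Alas2 and -0.06 for Bpgm (limma adjusted p from 0.896 to 0.997). Without Adr 3 d replicate 3 the differences were -1.45 for Hba-a1, -1.36 for Hba-a2, -1.43 for Hbb-bs, -1.52 for Hbb-bt, -1.18 for Alas2 and -0.23 for Bpgm. The limma adjusted p was then 0.208 for Hba-a1, Hbb-bs and Hbb-bt, and 0.665 for Hba-a2. For the 4 globins all 4 Arrest libraries lay under all 3 remaining Adr libraries, a pattern that 2.26% of all genes showed, and Alas2 (3.21 to 12.2 against 12.1 to 21.8 FPKM) overlapped slightly. The low globins of the replicate left out came with its low mitochondrial share and high platelet genes given above, and the part of these in its globin level was not tested. As a share of all counted fragments, its globins took 0.0873%, above the 0.0627% of Arrest 3 d replicate 2.

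Across all 9 groups at once, limma's F test called none of the 6 genes and 3.9% of all genes. Its adjusted p was 0.179 for Hba-a2, 0.285 for Hbb-bt, 0.300 for Hba-a1, 0.408 for Hbb-bs, 0.424 for Alas2 and 0.780 for Bpgm, and the unadjusted p was at most 0.05 for 2 of the 6, Hba-a2 and Hbb-bt (17.4% of all genes). Without Adr 3 d replicate 3 the F test called Hba-a1, Hbb-bs and Hbb-bt (limma adjusted p = 0.0261, 0.0337 and 0.0150), with 6.18% of all genes called. With sample quality weights it called Hbb-bt alone of the 6 (limma adjusted p = 0.0336) and 10% of all genes. Within groups, the globins and Alas2 spread more than most genes. Their within-group SD on the log2 scale was 0.54 to 0.63, at the 90.2nd to 93.8th percentile of 11506 genes of at least 1 FPKM, whose median was 0.28, and that of Bpgm was 0.34.

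The members varied together from library to library, also inside groups. Over the 37 libraries, on log2 of FPKM + 1, Hba-a1 followed Hbb-bs with Pearson r = 0.974 and Spearman rho = 0.968. As deviations from group means r was 0.968 and rho 0.952, with a slope of 1.00, and r was 0.949 without the 2 libraries farthest from the median of Hbb-bs. Each of these permutation p-values was 1e-05, the smallest that 100000 permutations can give, with an adjusted p of 1.5e-05 for r over the 12 relations computed. The α-globin genes lie on chromosome 11 and the β-globin genes on chromosome 7.

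Alas2, on the X chromosome, followed Hbb-bs within groups with r = 0.791 and rho = 0.734 (permutation p = 1e-05 each, adjusted p = 1.5e-05 and 1.71e-05), and r was 0.703 without the 2 farthest libraries. Its slope was 0.81. Bpgm, on chromosome 6, followed with r = 0.713 and rho = 0.708 within groups (permutation p = 1e-05 each), r = 0.723 without the 2 farthest, and a slope of 0.45. Hbb-bt followed its neighbour with r = 0.926 within groups. Hba-a2 followed least of the globins, with r = 0.557 and rho = 0.472 within groups (permutation p = 0.00048 and 0.00343, adjusted 0.000576 and 0.00412), falling to r = 0.428 without the 2 farthest. Slc4a1 had r = 0.407 and rho = 0.313 within groups (permutation p = 0.0133 and 0.0588), and r = 0.253 without the 2 farthest, so its relation rests in part on those libraries.

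**Figure D3:**
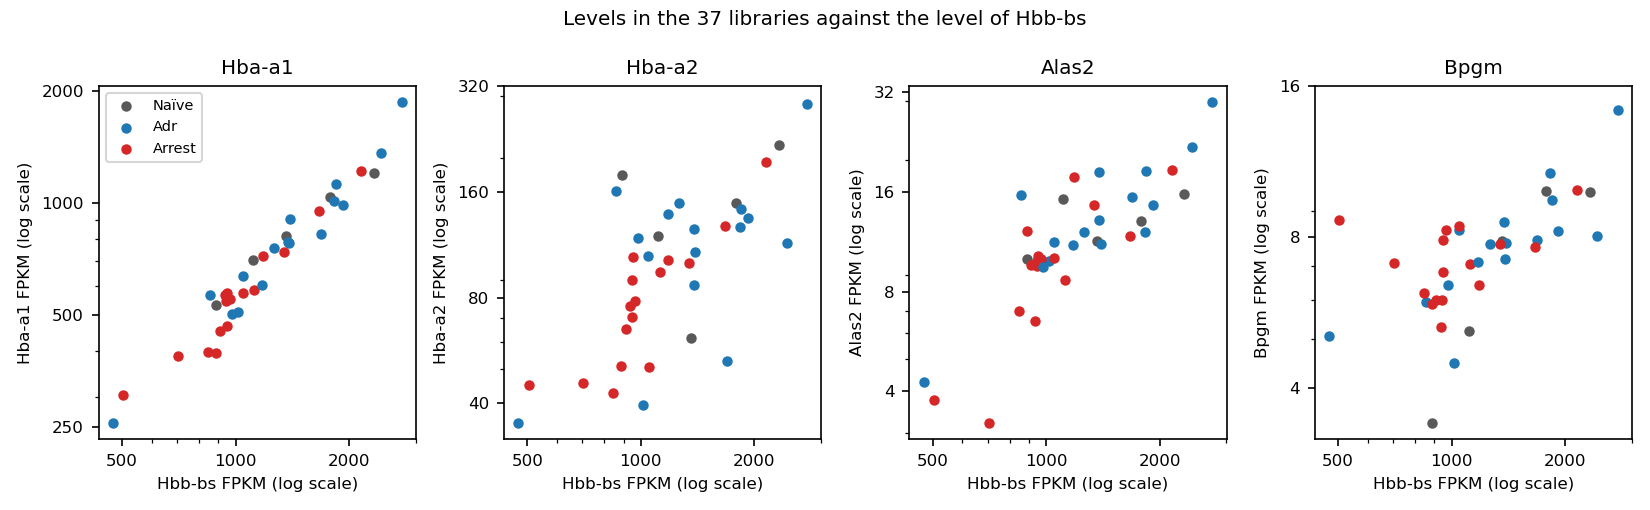
FPKM of Hba-a1, Hba-a2, Alas2 and Bpgm against FPKM of Hbb-bs, both on log scales, with 1 point a library coloured by arm. Hba-a1 forms a narrow line (r = 0.974), Hba-a2 scatters to both sides of it (r = 0.679), and Alas2 (r = 0.827) and Bpgm (r = 0.642) lie between or below.

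The copies of each pair did not keep one ratio. The FPKM ratio of Hba-a2 to Hba-a1 ran from 0.0642 in Adr 1 d replicate 4 to 0.336 in Naïve replicate 5, with a median of 0.142 and a coefficient of variation of 36.2% over the 37 libraries. In Naïve it was 0.170, 0.0756, 0.143, 0.180 and 0.336, and in Adr 1 d 0.165, 0.285, 0.0776 and 0.0642. Both groups thus held ratios that differ several-fold between libraries of the same treatment. The ratio of Hbb-bt to Hbb-bs ran only from 0.0576 to 0.114, with a median of 0.0819 and a coefficient of variation of 14.5%. The ratio of α to β, with each pair summed, ran from 0.458 to 0.787 with a median of 0.592. Summing the copies leaves their split out: in Arrest 3 d against Naïve the α sum had a log2 fold change of -1.10 (limma adjusted p = 0.150) and the β sum -0.90 (limma adjusted p = 0.232).

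**Figure D4:**
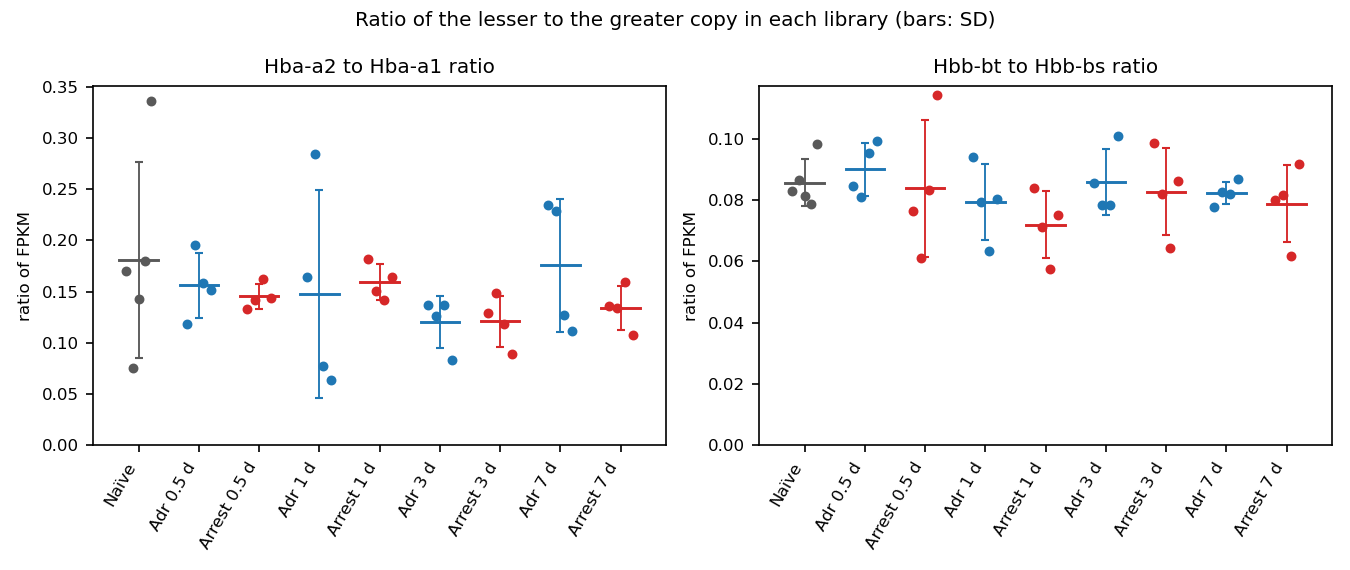
Ratio of FPKM of Hba-a2 to Hba-a1 (left) and of Hbb-bt to Hbb-bs (right) in every library by group; points are libraries, lines group means and bars the SD. The α ratio ranges from 0.0642 to 0.336, widest in Naïve and Adr 1 d, and the β ratio from 0.0576 to 0.114.

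Other genes of the red cell ranged from listed at 0 to abundant. A mean of at least 1 FPKM was reached by 2 of the 10 other globins, 4 of 9 regulators of red cell formation, 8 of 16 membrane genes, 11 of the 16 late red cell genes in the table and all 12 genes of haem synthesis, and a mean under 0.1 FPKM was found for 7, 3, 6, 4 and 0 of these. Of the 10 other globins listed, the embryonic Hba-x and Hbb-bh1 were at 0 in all 37 libraries, as were Hbb-bh0 and Hbb-bh2. The embryonic Hbb-y was at 0 in 35. A count of 0 allows up to 0.715 to 1.80 FPKM for Hbb-bh0 (3 fragments), so its 0 says little. For Hba-x it allows up to 0.0983 to 0.248 FPKM, and for Hbb-bh2 up to 0.165 to 0.416. Myoglobin (Mb), the oxygen store of muscle, averaged 3790 FPKM, and cytoglobin (Cygb) 35.9 FPKM; neither was called in any comparison. Of the 9 regulators of red cell formation, Gata1, the defining factor, was at 0 in 32 libraries and Klf1 in 29, and the highest values were 0.193 and 0.492 FPKM. Tal1, Zfpm1, Lmo2 and Ldb1, which other cells also use, averaged 2.46 to 13.4 FPKM. Of the 16 membrane genes of the red cell, Cldn13 was at 0 in all libraries, Rhag in 36, Kel in 34 and Epb42 in 26, while Aqp1, a water channel that other cells also use, averaged 238.5 FPKM and Ank1, an anchor of the membrane skeleton, 14.2 FPKM. Among the late red cell genes Hemgn was at 0 in 36 and Car1 in 35 libraries, while Prdx2, a peroxidase, averaged 109.5 FPKM and Bnip3l, which serves the removal of mitochondria, 22.2 FPKM. Ahsp was not analysed here.

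**Figure D5:**
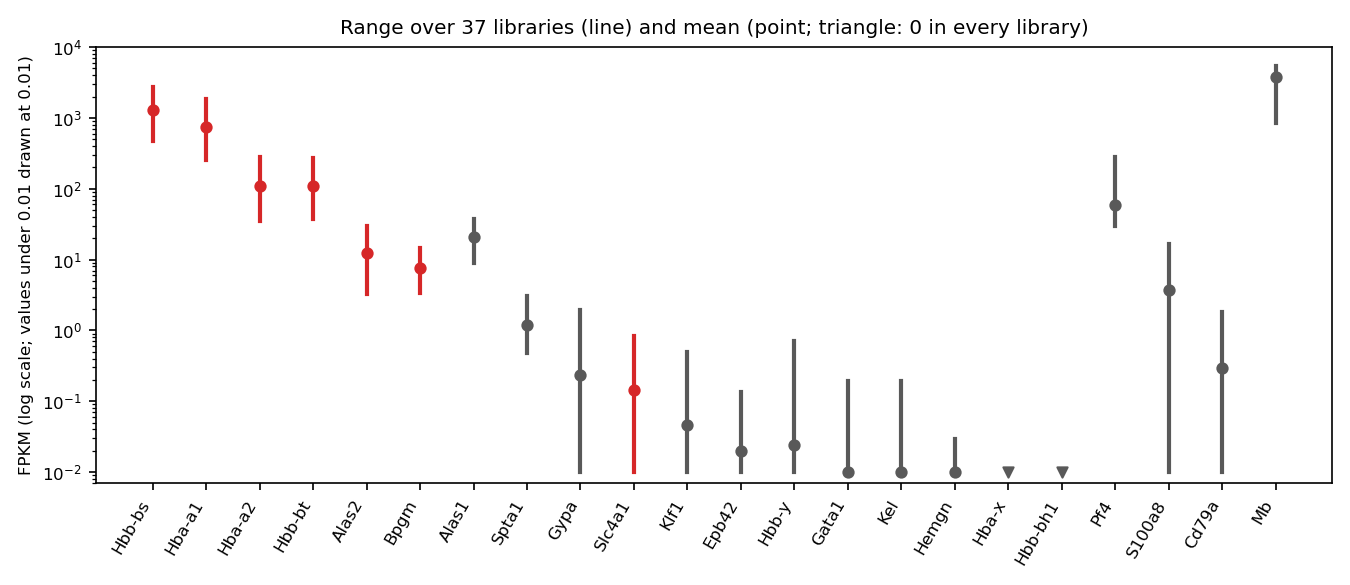
FPKM on a log scale (values under 0.01 drawn at 0.01) for the 7 genes (red) and for other listed genes (grey); lines span the 37 libraries, points are means, and triangles mark genes at 0 in every library. The adult globins stand between 35.2 and 2755 FPKM, while Gata1, Kel, Hemgn and the embryonic globins lie near or at 0.

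Around Alas2, few genes of the haem pathway were called. Of 12 listed genes for haem synthesis and iron entry into mitochondria, all 12 were tested, 1 was called lower in Arrest 0.5 d (3.21% of all genes were called there) and 1 higher in Arrest 1 d (7.11% of all genes), none was called in the other 10 comparisons, and the F test called 1, Urod (limma adjusted p = 0.0486). Abcb10, a mitochondrial transporter, fell by 0.51 (SE 0.15, limma adjusted p = 0.0463) in Arrest 0.5 d. Urod, which makes coproporphyrinogen, rose by 0.42 (SE 0.12, limma adjusted p = 0.0329) in Arrest 1 d. Alas1, the form of other tissues, averaged 20.7 FPKM and was not called. For Arrest 3 d, where Alas2 stood at -0.92, the median of the 12 was -0.17.

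Genes that clear haemoglobin and haem had mostly positive values against Naïve in both arms. All 8 tested of the 10 listed had positive log2 fold changes in Arrest 0.5 d and Arrest 1 d, with medians of 0.51 and 0.52, and also in Adr 0.5 d, 1 d and 3 d, with medians of 0.48, 0.43 and 0.55, against medians of 0.02 to 0.04 over all genes in these comparisons. These comparisons share the Naïve libraries, and none of the 8 was called in any Adr comparison. The Adr 3 d median includes replicate 3, whose summed FPKM of the 10 listed genes was 437 against 46.1 to 226 in the other 36 libraries. Of the 8, Hmox2, the constant form of haem oxygenase, rose in Arrest 0.5 d and Arrest 1 d (0.56 and 0.50, limma adjusted p = 0.0390 and 0.0437), and Cd163, the macrophage receptor for haemoglobin bound to haptoglobin, rose in Arrest 1 d (1.15, SE 0.35, limma adjusted p = 0.0390). These are 1 and 2 of 8 genes, beside 3.21% and 7.11% of all genes called in the same comparisons. Hmox1, the other haem oxygenase gene listed, was not called in any comparison or in the F test (limma adjusted p = 0.0886). Its mean was 6.96 FPKM in Naïve, and 72.3, 20.6, 101 and 7.13 in Adr on days 0.5, 1, 3 and 7. In Arrest it was 25.9, 44.3, 14.7 and 5.88 FPKM at the same times. Single libraries ran from 3.19 to 349 FPKM of Hmox1. None of the 8 was called in Arrest against Adr at any time, where the medians at 0.5 and 1 day were 0.02 and 0.07. Of the 9 glycolysis genes around Bpgm, 8 were tested, and only Pgam1, a phosphoglycerate mutase, was called, higher in Arrest 0.5 d and Arrest 1 d (0.76 and 0.74, limma adjusted p = 0.0300 and 0.0188).

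Of the 16 late red cell genes in the table, 12 were tested and 3 were called in Arrest 1 d, where limma called 7.11% of all genes. Tfrc, the transferrin receptor, was at -1.96 on the log2 scale (SE 0.50, limma adjusted p = 0.0139), Xpo7 fell by 0.39 (adjusted p = 0.0259) and Prdx2, a peroxidase, rose by 0.45 (adjusted p = 0.0343), and their means over all libraries were 9.59, 2.47 and 109.5 FPKM. In the F test Prdx2 was called (limma adjusted p = 0.0229). The 10 tested of the 16 membrane genes had no call in any comparison, and the 5 tested of the 9 regulators had none between pairs of groups. Lmo2 was called by the F test (limma adjusted p = 0.0293), which called 3.9% of all genes.

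Markers of other blood cells were set beside haemoglobin. As descriptions over the 37 libraries, summed platelet genes had a within-group r of -0.351 with summed haemoglobin and -0.0206 without Adr 3 d replicate 3, summed neutrophil genes -0.102 (0.0370 without that library) and summed B cell genes -0.319 (-0.118 without that library). These sums share libraries and depth with haemoglobin. Neutrophil genes averaged 4.50 ± 4.76 FPKM in Naïve (SD, n = 5), 17.1 ± 11.6 in Arrest 0.5 d and 13.1 ± 13.3 in Arrest 3 d (SD, n = 4 each), with ranges of 0 to 12.2, 5.44 to 32.2 and 3.60 to 32.8. Platelet genes ranged from 41.8 to 65.5 FPKM in Naïve and 36.4 to 119.6 in Arrest 3 d, and B cell genes from 0.289 to 2.69 and 0.806 to 2.04. Of the tested genes, 0 of 5 neutrophil, 0 of 2 B cell and 1 of 8 platelet genes were called. The last was Clec1b, higher in Arrest 1 d (0.49, limma adjusted p = 0.0200), where 7.11% of all genes were called. The share of all genes called was lower in every other comparison, with 3.21% in Arrest 0.5 d and at most 0.69% in Adr against Naïve. Cardiomyocyte genes had a within-group r of 0.443 with summed haemoglobin and 0.141 without the 2 libraries farthest in haemoglobin, and endothelial genes 0.192. Of 6 endothelial genes, Kdr was lower in Arrest 0.5 d and 1 d (-0.95 and -0.92, limma adjusted p = 0.0181 and 0.0107), Cdh5 was lower in Arrest 1 d (-0.42, adjusted p = 0.0181) and Emcn was higher in Arrest 0.5 d (0.60, adjusted p = 0.0107). These endothelial calls stand beside the same 3.21% and 7.11% of all genes. None of the 7 cardiomyocyte and 4 atrial genes was called in any comparison. Summed atrial genes were uneven even so. They ran from 13.8 to 32.4 FPKM in Naïve, 30.0 to 693 in Adr 1 d and 16.9 to 256 in Arrest 7 d. Adr 3 d replicate 3 had 485 FPKM. Atrial medians of log2 fold change against Naïve were 0.63, 2.70, 1.27 and 2.30 in Adr on days 0.5, 1, 3 and 7. In Arrest they were -0.10, 0.18, 0.11 and 0.98. Within groups, the atrial sum had r = -0.22 with summed haemoglobin (0.04 without the 2 farthest libraries).

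Outside the members, the 8 genes most like summed haemoglobin were chosen by the within-group correlation over 37 libraries among 11550 genes of at least 1 FPKM on average. Among them were Bckdha (r = 0.735), Pnpla8 (0.696), mt-Tn (0.691), Atp5mpl (0.688), Flot1 (0.683), Tshz2 (0.680) and Atp5md (0.679). Hbb-bs and Hba-a1, which are part of the sum, had 0.993 and 0.987, Alas2 0.807 and Bpgm 0.721. Flot1, one of them by the within-group measure, had r = 0.0221 over all libraries without removal of group means.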

How the data were processed

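Left ventricle RNA of mice was sequenced as 37 libraries in paired reads; per the study's methods the authors aligned with HISAT2 and analysed with DESeq2. The genome build, annotation, counting tool and strand of the table are not given in the sources used here, so no coordinates from it are printed. The deposited values are FPKM per gene and library. Multiplied by gene length and divided by each library's smallest value above 0, taken as 1 fragment, all of the values above 0 (100%) were whole numbers of fragments within a tolerance of 0.05, which gave the 13.2 to 30.2 M counted fragments per library; intervals and floors from them cover counting error only. The deposited FPKM were already scaled between libraries by the authors, since their median-ratio factors were equal in all 37.

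From these values, log2(FPKM + 1) was fitted in limma 3.58.1 (R 4.3.3; group means, trended prior) for the 16530 genes of at least 0.5 FPKM in at least 4 libraries, after rescaling by median ratios; a fold change on this scale understates that of low genes. Correlations, exact permutation tests and figures used Python 3.11.15 with scipy 1.17.1. The sequences came from RefSeq promoters (GRCm38.p6) and GENCODE M21 transcripts, with the coding sequence taken as the longest open reading frame. Groups came from the sample labels; replicate numbers do not pair mice. The labels do not say that libraries of a group came from separate mice, so p-values measure only the spread between these samples. The study dropped an Adr 3 d sample of poor quality without a label to say which, so all 4 were kept.

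The genes and lists were chosen with earlier results of these data known. The named genes are all 7 members, the listed genes past the threshold (otherwise the most abundant), and the 8 genes most like summed haemoglobin, of which 1 is not reported here. The genes at or near 0, and Tal1, Zfpm1, Ldb1 and the other listed genes named without a call, were chosen after their values were seen. Lists covered other globins, haem synthesis, red cell regulators, membrane and late genes, haemoglobin clearance, glycolysis around Bpgm, platelets, neutrophils, B cells, cardiomyocytes, atrium and endothelium. No p is given for summed haemoglobin, since its members were so chosen. Relations with Hbb-bs were added after the data were seen. Alternatives were rescaling (none, quantile, by counted fragments), pseudocount 0.1, other filters, summed copies, sample quality weights, the number in the description label as a covariate, the 2 groups alone, single libraries left out, a replicate block and a correction for gene length by lowess within libraries, added after the data were seen.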

Additional observations from a re-analysis of the deposited data

Results flagged for a closer look

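In Adr 0.5 d, replicate 4 lay far above the other 3 libraries for 5 measures. Its summed haemoglobin was 5185 FPKM against 2271 to 2528, its Hba-a1 1872 against 757 to 909, its Hbb-bs 2755 against 1263 to 1394, its Hbb-bt 273 against 102.3 to 131.5 and its Bpgm 14.3 against 7.73 to 8.58 FPKM. These measures share 1 library and are not separate events. Slc4a1 in Arrest 3 d replicate 4 was 0.0629 FPKM, with the other 3 libraries listed at 0. Any value above 0 meets the criterion when the rest are at 0, and this one is 10 fragments, so the gap tests nothing. Such a gap was looked for in 99 pairs of a measure and a group, and chance gives about 1 in 20. For Bpgm, all 4 Adr 0.5 d libraries lay above the Naïve mean of 7.23 FPKM and all 4 Arrest 0.5 d libraries below it. The Naïve libraries themselves had a median of 7.84 FPKM and a highest value of 9.88 FPKM, and their range covers all 4 Arrest and 3 of the 4 Adr libraries. Neither group was called against Naïve, and the difference between their positions was not tested beyond the direct comparison of both groups, which was not called.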

How the results depend on the processing

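The 6 tested genes gave 72 fold changes in 12 comparisons and 1512 values under alternatives, of which 1 passed the adjusted threshold. That one was Hba-a2 in Arrest 3 d against Naïve with Adr 3 d replicate 3 out of the model, which made the count of genes called there 1 of 6. The 106 alternative values of the 4 globins and Alas2 in that comparison all kept the negative sign, and 34 of the 72 fold changes took the other sign in at least 1 alternative (120 values). By the unadjusted exact permutation test the count was 2 of 6 genes in Arrest 1 d against Naïve, 5 of 6 in Arrest 3 d against Naïve and 4 of 6 in Arrest 0.5 d against Adr 0.5 d, beside 19.2%, 8.94% and 3.62% of all genes. In the F test over all groups the count was 1 with sample quality weights and 3 with Adr 3 d replicate 3 out of the model; over single libraries left out it ranged from 0 to 3, with 3 only without that library. The within-group r of platelet genes with summed haemoglobin ranged from -0.354 to -0.0206 with each of 3 libraries left out in turn, the latter without Adr 3 d replicate 3. Same-numbered libraries did not deviate together (correlations from -0.295 to 0.266; 7 of 37 libraries correlated best with their own number). With the replicate number as a block, the count of the 6 genes called stayed at 0 in each comparison and in the F test, and genes called in Arrest 1 d against Naïve went from 1176 to 768. Causes of these changes were not tested. Depth limited Slc4a1, whose 0 to 60 fragments a library allow no comparison, and the 95% interval of Hba-a2 in Arrest 3 d against Naïve reached from -2.28 to -0.64.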
